A study of Homo sapiens with 6 samples.

Results

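Glypicans and syndecans are the cell-surface core proteins that carry heparan sulfate chains. The 6 human glypican genes (GPC1 to GPC6) and the 4 syndecan genes (SDC1 to SDC4) were taken by symbol and matched to their Ensembl gene IDs, and all 10 were found among the 60499 genes listed. They were measured by total RNA sequencing in H1, an established line of human pluripotent embryonic stem cells, after 4 days of culture in daily changed NutriStem medium, at confluence. In 3 wells the coating was laminin-521 alone (LN-521), and in the other 3 it was laminin-521 together with laminin-221 (LN-521+LN-221). Every well therefore had laminin-521, and the second group differed by the added laminin-221, whose amount is not given in the sources used here. The labels also do not say if laminin-521 was used at the same amount in both groups. An effect of added laminin-221 therefore cannot be told apart from an effect of less laminin-521. All wells are of a single line and are labelled as biological replicates, so the spread and the p-values describe differences between wells of 1 line.

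Glypicans are held to the outer membrane leaflet by a glycosylphosphatidylinositol (GPI) anchor and have no cytoplasmic part, whereas syndecans cross the membrane and end in a short tail that binds PDZ proteins and the cytoskeleton. Through their chains both families hold growth factors such as FGFs, Wnts and BMPs near their receptors. Syndecans also bind the globular domains at the end of laminin alpha chains and act beside integrins in adhesion. In pluripotent cells, heparan sulfate is known to be needed for normal FGF signalling.

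Total counts ranged from 20606450 to 26836686 per library. The first principal component of the 2000 most variable genes, 26.8% of the variance, separated the coatings. On the second (21.6%), LN-521 replicate 1 lay at 26 and the other 5 libraries between -17.8 and 4.48. Pluripotency markers were high in all libraries, with a summed TPM over 7 genes of 2631 to 2913 on LN-521 against 2546 to 2722 on LN-521+LN-221. TPM, the scale of these sums, gives transcript levels per unit of length, with an equal sum over all genes of each library. Of the other cell types' lists, the 5 mesoderm genes summed to at most 1.01 TPM and the 5 endoderm genes to at most 1.35 TPM in any library, and of the stromal genes LUM was at 0 in all 6 and COL3A1 at no more than 0.01 TPM. The 5 stromal genes together, nearly all COL1A1, summed to 40.6 to 45.4 TPM on LN-521 against 39.5 to 46.3 TPM with laminin-221 added. In CPM, the count-based scale explained below, COL1A1 was at 167.1, 179.6 and 159.1 against 145.3, 148.2 and 146.4, lower without overlap and not called (edgeR adjusted p = 0.0724). Stromal PDGFRB was at 2.67, 2.70 and 2.19 against 2.03, 1.78 and 1.48 TPM, lower without overlap. In CPM its groups overlapped, and it was not called (edgeR adjusted p = 0.82). The 5 neuroectoderm genes, nearly all NES, summed to 57.5 to 66.0 against 64.9 to 65.7 TPM. ZIC1 was called higher (edgeR adjusted p = 0.0474) at low counts, 9, 9 and 11 against 21, 27 and 19. NES and PAX6 were not called (edgeR adjusted p = 0.712 and 0.766), and SOX1 and LHX2 had too few counts to be tested. The 5 trophoblast or amnion genes, mostly KRT7, summed to 12.9 to 16.1 against 12.8 to 14.6 TPM. Among them TFAP2A was at 0.86 to 2.21 TPM and was not called (edgeR adjusted p = 0.554), and CDX2, GATA3 and CGA were at no more than 0.14 TPM. Within the pluripotency list POU5F1, NANOG and TDGF1 were called lower and LIN28A higher on LN-521+LN-221 (edgeR adjusted p = 0.00366, 1.65e-04, 8.23e-06 and 0.00737), and the part of such shifts, and of that in COL1A1, in the glypican values below was not tested. Counts were not whole in any library for POU5F1 and NANOG and were whole in 1 library for TDGF1, so these 3 may hold reads shared with other genes. In RNA from whole wells, fewer cells of a type and less RNA per cell cannot be told apart.

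On the per-length TPM scale the most abundant of the 10 genes was GPC3, at 52.0 ± 5.08 TPM (SD, n = 6), and the least abundant GPC5, at 0.262 ± 0.0811 TPM (SD, n = 6). GPC3 is an X-linked oncofetal glypican whose loss causes an overgrowth syndrome. SDC2, a syndecan typical of mesenchymal and embryonic cells, followed at 41.3 ± 2.35 TPM, then GPC4 at 29.2 ± 3.88 TPM and SDC4, the widely expressed focal adhesion syndecan, at 26.0 ± 1.74 TPM (SD, n = 6 each). GPC2, a glypican of developing neurons, stood at 17.3 ± 0.968 TPM, GPC1 at 12.4 ± 1.08 TPM, the epithelial syndecan SDC1 at 11.1 ± 0.743 TPM, SDC3, the neural syndecan, at 6.92 ± 0.345 TPM and GPC6 at 5.18 ± 0.883 TPM (SD, n = 6 each). Levels thus differed between the members of each family in these cells, and GPC5 alone lay below 1 TPM.

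Neighbours in this order had separate ranges over the 6 libraries, apart from GPC4 with SDC4 and GPC1 with SDC1. On LN-521 those pairs did not overlap either, while on LN-521+LN-221 both did. Within the glypican total, GPC3 made up 40.3% to 42.2% on LN-521 against 46.8% to 48.7% on LN-521+LN-221, and GPC4 24.8% to 28.8% and 22.8% to 24.0%. Without laminin-221 the glypicans summed to 116.6 ± 8.42 TPM and with it to 116.1 ± 5.15 TPM (SD, n = 3 each), so the family sum overlapped between the coatings. The syndecans summed to 82.4 ± 0.729 and 88.2 ± 2.59 TPM (SD, n = 3 each), with separate ranges of 81.6 to 83.1 and 85.2 to 90.0 TPM. That separation was seen on the deposited TPM only. After removal of the abundant RNA genes described below, the syndecan sums overlapped, at 119.9 to 131.5 against 128.8 to 132.7 TPM, as they did on the CPM scale used for the tests, at 203.6 to 217.1 against 216.0 to 220.1 CPM.

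**Figure D1:**
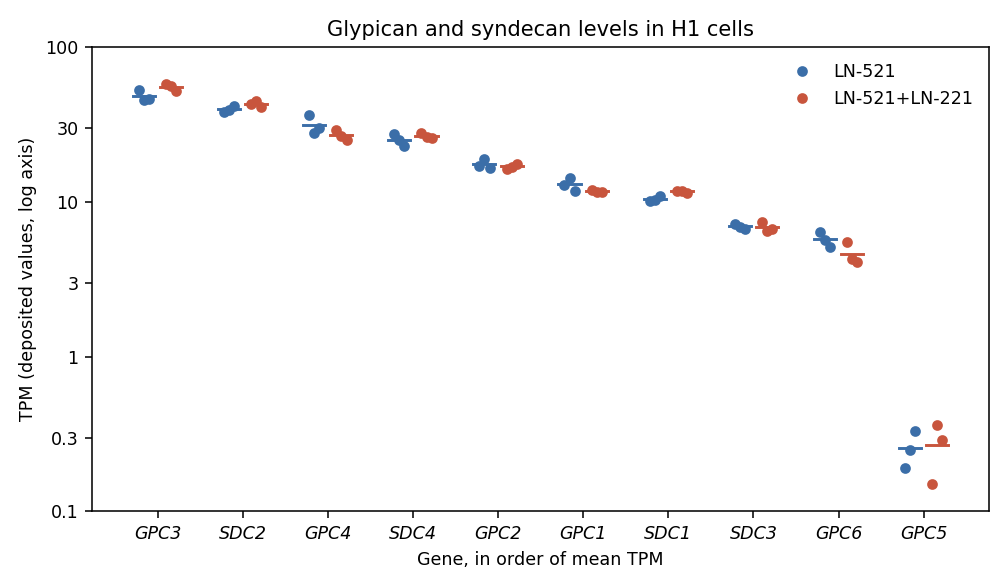
Deposited TPM of the 10 genes (log axis), in order of their mean over 6 libraries; each point is 1 well, blue on LN-521 and red on LN-521+LN-221, and short lines are means of 3 wells. GPC3 and SDC2 lead on both coatings, at means of 52.0 and 41.3 TPM, and GPC5 lies below 1 TPM in every well.

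The coatings were compared on counts, shown as CPM (counts scaled to a common library total, with library sizes adjusted by the TMM method). A gene was called where its adjusted p fell under 0.05 (edgeR quasi-likelihood test, Benjamini-Hochberg over the 17608 genes tested). Of the 10 genes, 9 had enough counts to be tested and 1 of them was called, GPC4, which fell, where 2.53% of all genes tested were called, 1.4% higher and 1.14% lower. Wells of the coatings had separate CPM ranges for 3 of the 9, GPC3, GPC4 and GPC6, against 19.9% of all genes tested. Of these 3, 1 was higher and 2 were lower on LN-521+LN-221, against 10.2% and 9.68% of all genes tested, and 6 of the 9 had a fitted value below 0, against 50.3%. The median log2 fold change (LN-521+LN-221 over LN-521) was -0.15 for the 5 tested glypicans and 0.02 for the 4 syndecans, beside -0.001 for all genes tested, whose median absolute log2 fold change was 0.11.

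GPC4 (ENSG00000076716), a glypican of embryonic and neural stem cells that binds Wnt and FGF ligands, was the called gene. Its values were 200, 183.6 and 187.1 CPM on LN-521 against 164.6, 157.1 and 155.8 CPM on LN-521+LN-221. The 3 wells with laminin-221 were all below the 3 without it. Group means were 190.2 ± 8.65 and 159.2 ± 4.75 CPM (SD, n = 3 per coating). On the log2 scale the difference was -0.26 ± 0.05 (SE; adjusted p = 0.0139 in edgeR), a change of -16.3% with a 95% interval of -22.8% to -9.38%. Without LN-521 replicate 1, the library that stood apart, the log2 fold change was -0.22 (edgeR adjusted p = 0.00671). The call was lost without LN-521 replicate 3 (-0.27, edgeR adjusted p = 0.0637), LN-521+LN-221 replicate 2 (-0.25, 0.134) or LN-521+LN-221 replicate 3 (-0.24, 0.116), over a range of adjusted p from 0.00218 to 0.134 in the 6 such fits and from 8.98e-05 to 0.861 over all settings.

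On the TPM scale the GPC4 groups overlapped, at 36.3, 28.0 and 30.2 TPM on LN-521 against 29.1, 26.5 and 25.3 TPM on LN-521+LN-221, and limma on log2(TPM + 1) did not call the gene (-0.21, adjusted p = 0.741). Small cytoplasmic RNAs of the 7SL family took 30.1% to 37.3% of the TPM on LN-521 against 31.2% to 32.9% on LN-521+LN-221. After removal of these and of mitochondrial, ribosomal and 7SK RNA genes, GPC4 lay between 45.2 and 52.4 TPM on LN-521 against between 38.2 and 42.7 TPM on LN-521+LN-221, without overlap, and was still not called by limma on log2(TPM + 1) (-0.25, adjusted p = 0.415).

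GPC6 (ENSG00000183098) belongs to the same glypican subfamily as GPC4. It read 46.6, 39.0 and 41.6 CPM on LN-521 against 37.1, 33.1 and 33.4 CPM on LN-521+LN-221. Again every well with laminin-221 was below every well without it, and in both groups replicate 1 was the highest. In TPM the groups overlapped, at 6.43, 5.68 and 5.09 against 5.48, 4.25 and 4.12 TPM. The log2 fold change was -0.30 ± 0.08 (SE; a change of -18.5%, 95% interval -27.5% to -8.46%), but it missed the threshold (edgeR adjusted p = 0.0603). It passed with the replicate number as a block (-0.29, edgeR adjusted p = 0.0160), with DESeq2 (-0.30, adjusted p = 0.0394), with no count filter (-0.31, edgeR adjusted p = 0.00712), with a correction for GC content (-0.32, edgeR adjusted p = 0.00203) and without LN-521 replicate 2 (-0.35, edgeR adjusted p = 0.00964), and without LN-521 replicate 1 the value was -0.22 (edgeR adjusted p = 0.0723). Over all its settings the adjusted p ran from 0.00106 to 0.821. The antisense gene AL354811.1 shares 476 exonic bases with GPC6 on the other strand. It had 15 to 31 counts per library against 738 to 1069 for GPC6, and since no source used here says if strand was counted, the reads of the pair may not have been told apart.

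GPC3 (ENSG00000147257) had 121.9, 124.2 and 123.2 CPM on LN-521 against 138.1, 138.5 and 132.0 CPM on LN-521+LN-221. Here the wells with laminin-221 were the higher ones on the CPM scale, without overlap. In TPM the groups overlapped, at 53.3, 45.5 and 46.6 against 57.9, 56.6 and 51.9 TPM. The log2 fold change of 0.15 ± 0.05 (SE; a change of 10.6%, 95% interval 2.42% to 19.5%) did not pass the threshold (edgeR adjusted p = 0.190). With the GC correction it did (0.16, edgeR adjusted p = 0.0210, or 0.0239 with the replicate block as well). The 95% intervals here are per gene and are not adjusted for the number of genes, so an interval on 1 side of 0 can go with an adjusted p above 0.05.

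GPC3 and GPC4 are neighbours on the X chromosome, in the same orientation and 120254 bases apart. In GENCODE release 29 (GRCh38), the protein-coding GPC4 gene spans chrX:133300103-133415490 and GPC3 chrX:133535745-133985895, both on the minus strand. GPC6 spans chr13:93226842-94407401 on the plus strand, next to GPC5 at chr13:91398607-92873682. The ratio of GPC4 to GPC3 counts, chosen after the values were seen and free of any library scaling, was 1.64, 1.48 and 1.52 on LN-521 against 1.19, 1.13 and 1.18 on LN-521+LN-221. The ratio of GPC6 to GPC4 counts ran from 0.212 to 0.233 on LN-521 against from 0.211 to 0.226 on LN-521+LN-221, with overlapping ranges. The ratio of GPC6 to GPC3 counts ran from 0.314 to 0.382 on LN-521 against 0.239 to 0.269 on LN-521+LN-221. GPC4 and GPC6 were lower and GPC3 higher with separate CPM ranges, so the separation of both ratios to GPC3 follows from those values and adds no evidence to them.

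**Figure D2:**
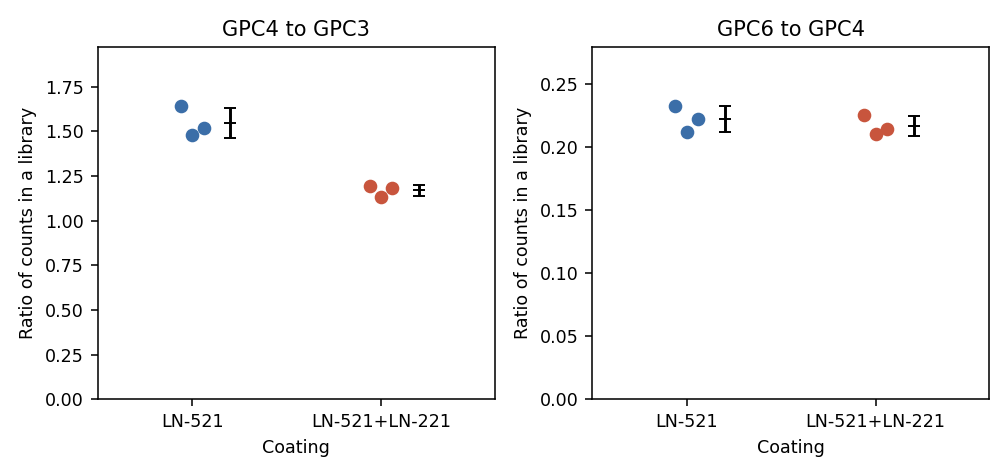
Ratio of counts within each library, GPC4 to GPC3 (left) and GPC6 to GPC4 (right), by coating; points are wells, and bars are the mean ± SD of 3 wells. The GPC4 to GPC3 ratios lie at 1.48 or above on LN-521 and at 1.19 or below on LN-521+LN-221, whereas the GPC6 to GPC4 ratios overlap; the ratios restate the CPM values of these genes without library scaling.

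The promoters of the pair with lower values are shown to compare the sequence before their starts. Promoters from RefSeq (GRCh38.p14) matched 8 of the 10 genes (GPC3 and SDC2 were not matched), and the 250 bases before the start are printed 5′ to 3′ on the gene's strand, with matches to 4 motifs in capitals. The motifs, searched on both strands and with no overlap between different motifs in these sequences, were GGGCGG for the GC box, CCAAT for the CCAAT box, TATAAA for the TATA box and CACGTG for the E box. They are found in 42.6%, 32.0%, 10.7% and 6.34% of the 35116 promoters of the table.
GPC4, chrX:133415490-133415739, minus strand: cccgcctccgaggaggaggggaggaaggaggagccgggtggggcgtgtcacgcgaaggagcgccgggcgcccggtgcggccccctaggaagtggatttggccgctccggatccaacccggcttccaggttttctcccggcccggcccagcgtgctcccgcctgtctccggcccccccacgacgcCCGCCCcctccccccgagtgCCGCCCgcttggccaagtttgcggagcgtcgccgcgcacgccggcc
GPC6, chr13:93226557-93226806, plus strand: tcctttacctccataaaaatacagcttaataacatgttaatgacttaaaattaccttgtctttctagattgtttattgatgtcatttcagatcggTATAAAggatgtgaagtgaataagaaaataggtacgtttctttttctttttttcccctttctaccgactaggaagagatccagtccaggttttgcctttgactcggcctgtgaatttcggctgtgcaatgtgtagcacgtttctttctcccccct
The GPC4 sequence holds 2 GC boxes, both read on the opposite strand, with 76.0% GC and 32 CpG dinucleotides. The GPC6 sequence holds 1 match to the TATA box letters and no GC box, with 37.6% GC and 6 CpG dinucleotides. That match lies nearer the far end of the 250 bases than the start of the gene. Of all promoters, 91.3% had a lower GC content than that of GPC4 and 8.95% a lower one than that of GPC6, so these sequences lie near opposite ends of the range. Among the other matched genes the GC content ran from 62.4% (GPC5) to 84.0% (GPC1), and each held at least 1 GC box. A match describes these letters only, since no binding was measured.

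The remaining glypicans did not pass the threshold. GPC1 (ENSG00000063660), the widely expressed glypican that acts as an FGF co-receptor, read 37.1, 46.5 and 37.4 CPM on LN-521 against 35.0, 38.3 and 40.2 CPM on LN-521+LN-221. LN-521 replicate 2 was the highest well and the groups overlapped (log2 fold change -0.09, 95% interval -0.28 to 0.09, edgeR adjusted p = 0.698), and without that well the value was 0.03 (edgeR adjusted p = 0.923). GPC2 (ENSG00000213420) read 41.1, 56.2 and 48.2 CPM and 42.2, 42.9 and 46.0 CPM, again with its highest value in LN-521 replicate 2 (-0.15, 95% interval -0.35 to 0.05, edgeR adjusted p = 0.50). Leaving out 1 library moved GPC2 between -0.26 (without LN-521 replicate 1, called at edgeR adjusted p = 0.0358) and -0.03 (without LN-521 replicate 2, edgeR adjusted p = 0.919). GPC5 (ENSG00000179399) had 8 to 14 counts per library and did not pass the count filter. With no filter its log2 fold change was -0.19 ± 0.50 (SE; edgeR adjusted p = 0.918), so a small difference was not detectable at this depth.

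None of the 4 syndecans passed the threshold, against 2.53% of all genes tested, and 0 of them had separate CPM groups, against 19.9%. With 4 genes, counts of 0 do not set the family apart from these shares. SDC2 (ENSG00000169439) read 76.5, 74.2 and 74.6 CPM on LN-521 against 86.3, 83.9 and 76.1 CPM on LN-521+LN-221, where the last well fell among those on LN-521. Its log2 fold change was 0.13 (95% interval -0.003 to 0.26, edgeR adjusted p = 0.357). SDC4 (ENSG00000124145), which works with integrins and protein kinase C alpha at focal adhesions, read 77.3, 83.5 and 73.0 CPM and 80.3, 79.0 and 81.6 CPM. Its groups overlapped, with a log2 fold change of 0.04 (95% interval -0.09 to 0.17, edgeR adjusted p = 0.815).

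SDC3 (ENSG00000162512) read 30.9, 31.8 and 29.4 CPM on LN-521 against 27.6, 27.9 and 29.8 CPM on LN-521+LN-221, with 1 well of the second group among the first (-0.11, 95% interval -0.27 to 0.05, edgeR adjusted p = 0.543). SDC1 (ENSG00000115884) was at 26.3, 27.7 and 26.6 CPM and 25.9, 25.2 and 29.3 CPM. Its log2 fold change was -0.003 (95% interval -0.17 to 0.17, edgeR adjusted p = 0.990), an interval of -11.2% to 12.1% on the linear scale. On the TPM scale SDC1 did separate, at 10.1, 10.3 and 10.9 TPM on LN-521 against 11.8, 11.8 and 11.5 TPM on LN-521+LN-221, although limma on log2(TPM + 1) did not call it (0.15, adjusted p = 0.740).

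**Figure D3:**
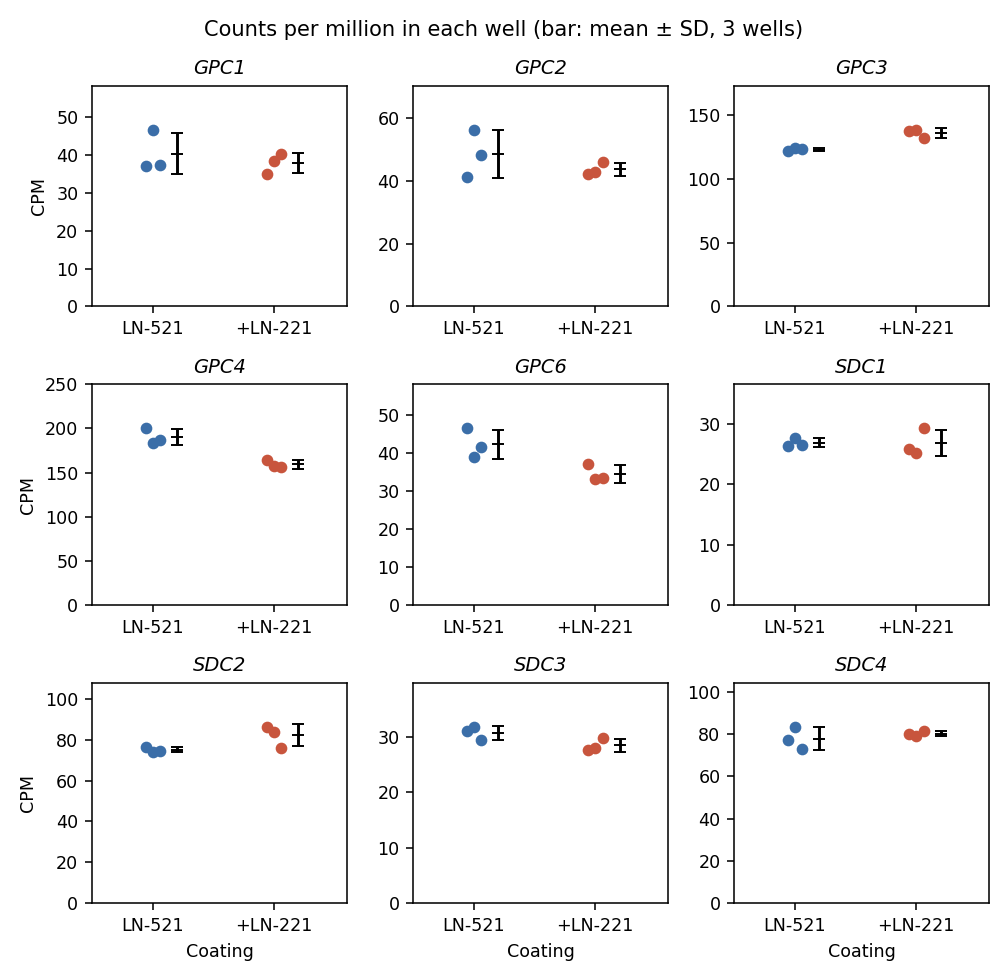
CPM of the 9 tested genes in each well, LN-521 in blue and LN-521+LN-221 (marked +LN-221) in red; black bars are the mean ± SD of 3 wells, and each axis starts at 0. The colours separate for GPC3, GPC4 and GPC6 and overlap for the other 6.

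**Figure D4:**
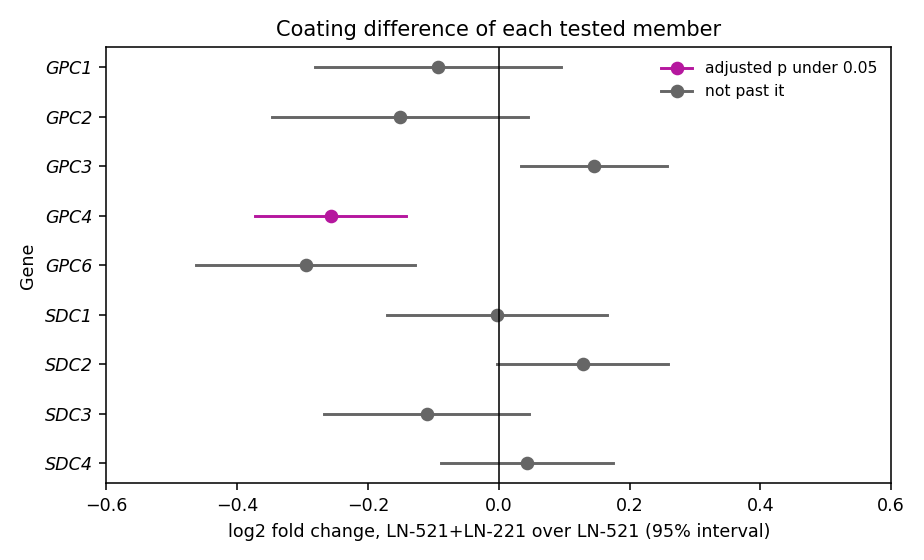
Log2 fold change of each tested gene, LN-521+LN-221 over LN-521, with its unadjusted 95% interval (edgeR). GPC4, at -0.26, is the called gene, and GPC6 (-0.30) and GPC3 (0.15) have intervals on 1 side of 0.

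By the correlation of log2 CPM over the 6 libraries, 3 genes were most like GPC4 among 10033 genes with a symbol and a mean of at least 10 CPM. They were B4GALT1, a Golgi galactosyltransferase (Pearson r = 0.995), the magnesium transporter SLC41A1 (0.993) and the synaptic adhesion gene NLGN4X (0.992). The points share 2 coatings and 6 libraries, 92 genes had an r above 0.95, and the values are a description with no test. NLGN4X went from 182.9 ± 6.68 to 148.2 ± 4.11 CPM (SD, n = 3 each).

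The genes that build, edit and bind the chains were taken in 6 lists of 86 genes, of which 83 were tested. In them 3 genes were called higher and 5 lower, 8 of 83, where 2.53% of all genes tested were called. The lists were chosen with earlier results of these data known, so these counts are no evidence that such genes were called more often. The lists' medians are set beside the -0.001 of all genes tested.

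Among the 12 genes of the linkage tetrasaccharide and the chain polymerases no gene was called, and 7 had fitted values below 0 (median log2 fold change -0.04), where 50.3% of all genes tested did. EXT2, which polymerises the chain together with EXT1, stood at 55.9 ± 0.346 and 56.1 ± 2.09 CPM (SD, n = 3 each; edgeR adjusted p = 0.983). EXTL2, an enzyme that ends chain growth, was at 50.8 ± 5.87 and 52.6 ± 3.56 CPM (edgeR adjusted p = 0.834). EXTL3, which starts the chain, was at 106.9 ± 6.06 and 97.0 ± 1.38 CPM without overlap (edgeR adjusted p = 0.262), and was called without LN-521 replicate 1 (-0.19, edgeR adjusted p = 0.0332).

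Of the 21 genes for sulfation, epimerisation and the sulfate donor, 20 were tested and 2 fell (median 0.012). HS6ST3, a 6-O-sulfotransferase, read 8.54, 10.3 and 10.4 CPM on LN-521 against 6.26, 5.02 and 6.63 CPM on LN-521+LN-221. Its change was -38.7% (log2 fold change -0.71 ± 0.13 SE, edgeR adjusted p = 0.00540), and the call was lost without LN-521 replicate 3 (edgeR adjusted p = 0.0544) or LN-521+LN-221 replicate 2 (edgeR adjusted p = 0.0618). With limma on unfiltered log2(TPM + 1) HS6ST3 was at -0.30 and was not called, on a scale that understates the change of low genes. PAPSS2, a synthase of the sulfate donor PAPS, went from 42.5 ± 3.21 to 34.2 ± 2.81 CPM (SD, n = 3 each; -0.31, edgeR adjusted p = 0.0463). The more abundant PAPSS1 was at 126.4 ± 2.19 and 125.2 ± 6.52 CPM (edgeR adjusted p = 0.944), HS6ST1 at 110.4 ± 6.05 and 117.3 ± 5.08 CPM (edgeR adjusted p = 0.550), with counts that were not whole in any library, and the PAPS transporter SLC35B2 at 23.7 ± 2.77 and 24.0 ± 1.41 CPM (edgeR adjusted p = 0.960). PAPSS2 was called in the 6 fits that each left out 1 library only without LN-521 replicate 1 or LN-521 replicate 2, and not without the other 4.

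Of 17 genes for editing, shedding and release, 1 rose and 1 fell (median -0.075). SULF1, an extracellular sulfatase that trims 6-O-sulfates, read 41.1, 36.6 and 42.0 CPM on LN-521 against 33.8, 32.0 and 29.9 CPM on LN-521+LN-221, a change of -20.1% (log2 -0.32 ± 0.08 SE, edgeR adjusted p = 0.0320). In TPM its groups overlapped, at 16.8, 15.2 and 15.0 against 15.5, 13.4 and 12.2 TPM, and limma on log2(TPM + 1) gave -0.18 (adjusted p = 0.763). SULF1 lost the call without LN-521 replicate 3 or any 1 of the 3 LN-521+LN-221 replicates (edgeR adjusted p between 0.0610 and 0.204). GDPD2, a membrane glycerophosphodiesterase, read 29, 33.2 and 27.6 CPM and 41.5, 42.7 and 43.8 CPM, 42.4% higher (0.51 ± 0.08 SE, edgeR adjusted p = 9.31e-04), and kept its call without any 1 library. Its relative GDPD5, a known glypican-releasing enzyme named after the lists were written, was at 3.10 ± 0.543 and 3.45 ± 0.634 CPM (edgeR adjusted p = 0.796). Of the abundant genes of this list, the sheddase ADAM10 was at 185.5 ± 15.5 and 174.5 ± 6.15 CPM (edgeR adjusted p = 0.572), MMP14, a membrane protease that can shed syndecans, at 57.6 ± 4.62 and 57.1 ± 2.22 CPM (edgeR adjusted p = 0.957) and GDE1 at 51.9 ± 3.64 and 52.2 ± 1.13 CPM (edgeR adjusted p = 0.971).

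Of 14 genes for core protein partners, 2 rose and 1 fell (median -0.002). PRKCA, the kinase bound by the SDC4 tail, read 14.4, 16.8 and 15.7 CPM on LN-521 against 19.3, 20.3 and 23.4 CPM on LN-521+LN-221, 34.2% higher (0.42 ± 0.10 SE, edgeR adjusted p = 0.0235). TIAM1, a Rac exchange factor that binds the SDC1 tail, read 63.3, 68.0 and 64.5 CPM and 78.0, 80.1 and 86.1 CPM, 24.7% higher (0.32 ± 0.06 SE, edgeR adjusted p = 0.00767). CD81, a tetraspanin that binds GPC3, read 64.5, 78.2 and 73.8 CPM and 56.5, 58.8 and 61.7 CPM, a change of -18.3% (log2 -0.29 ± 0.07 SE, edgeR adjusted p = 0.0404). PRKCA and TIAM1 lost the call without LN-521 replicate 3, LN-521+LN-221 replicate 2 or LN-521+LN-221 replicate 3, and CD81 without any library but LN-521 replicate 1. Their log2 fold changes in the 6 fits without 1 library ran from 0.34 to 0.49 for PRKCA, 0.27 to 0.35 for TIAM1 and -0.37 to -0.23 for CD81. EZR, which links membrane proteins to actin, was at 295 ± 7.06 and 300.5 ± 8.81 CPM (edgeR adjusted p = 0.874), and the glypican-binding receptor phosphatases PTPRS and PTPRF were at 347 ± 14.8 and 339 ± 10.9 CPM and at 352 ± 27.4 and 365 ± 18.4 CPM (edgeR adjusted p = 0.831 and 0.756).

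Of 7 other heparan sulfate core proteins, 6 were tested and 1 fell (median 0.079). COL18A1, the basement membrane collagen that carries heparan sulfate, read 232.5, 265.8 and 215.9 CPM on LN-521 against 200.8, 194.2 and 203.3 CPM on LN-521+LN-221, a change of -16.2% (log2 -0.26 ± 0.07 SE, edgeR adjusted p = 0.0489). Its call was lost without LN-521 replicate 2, where the log2 fold change was -0.17, or without any 1 of the LN-521+LN-221 replicates. The other basement membrane members, perlecan (HSPG2) at 171.4 ± 21.4 and 178.0 ± 8.86 CPM and agrin (AGRN) at 234.7 ± 36.8 and 241.2 ± 7.08 CPM, were not called (edgeR adjusted p = 0.802 and 0.893). In TPM the HSPG2 groups did separate, at 17.1, 14.4 and 15.1 against 19.8, 18.6 and 19.2 TPM, although limma on log2(TPM + 1) did not call it (0.29, adjusted p = 0.422). AGRN had whole counts in 1 library only, so its values may hold reads shared with other genes.

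Of 15 genes for chondroitin sulfate, the chain that syndecans can also carry, 14 were tested, 0 were called and 10 had fitted values below 0 (median -0.21), again against 50.3% of all genes tested. CHSY1, a chondroitin synthase, was at 73.4 ± 4.71 and 64.1 ± 0.906 CPM without overlap (edgeR adjusted p = 0.138) and was called with the GC correction (-0.19, edgeR adjusted p = 0.0363) and without LN-521 replicate 2 (-0.24, edgeR adjusted p = 0.0170). UST, a uronyl sulfotransferase, was at 76.8 ± 4.21 and 77.0 ± 0.568 CPM (edgeR adjusted p = 0.986) and the epimerase DSE at 59.6 ± 1.54 and 57.3 ± 1.09 CPM (edgeR adjusted p = 0.734).

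**Figure D5:**
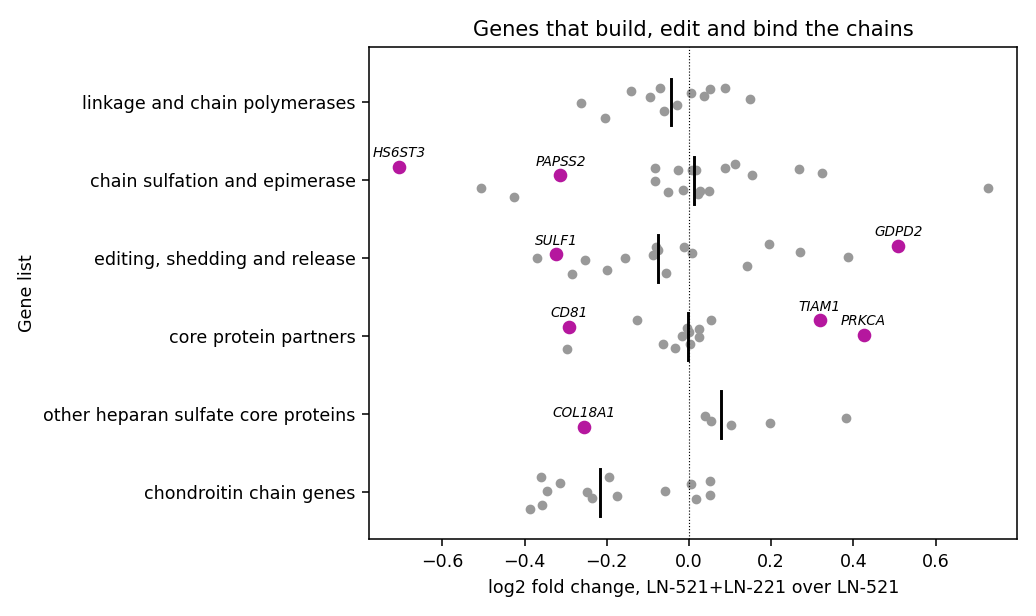
Log2 fold change of each tested gene of the 6 lists, LN-521+LN-221 over LN-521; large named points passed the threshold, small grey points did not, black lines are list medians, and vertical scatter within a list has no meaning. The 8 called genes lie between -0.71 (HS6ST3) and 0.51 (GDPD2), and the chondroitin list has the lowest median, -0.21.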

How the data were processed

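Per the submitters' processing notes, cutadapt, STAR 2.5.2b, RSEM 1.2.31 and the build hg38 were used. The annotation and the use of strand are not given in the sources used here. The authors deposited estimated counts per gene, of which 6.08% to 6.67% per library are not whole (those of the 10 genes all are), and TPM values scaled to the same total. IDs were matched to symbols (68.0% had one) and to GENCODE 29.

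Counts were rounded, filtered (filterByExpr, minimum count 10), scaled by TMM and tested in edgeR 4.0.16 (R 4.3.3, robust quasi-likelihood) over 6 libraries, 3 per coating, no block. No sequencing batch entered the fits, and a batch difference between libraries was not tested. Alternatives used DESeq2 1.42.0, limma 3.58.1 on log2 TPM with 1 or 0.1 added (genes reaching 1 TPM in at least 3 libraries), a GC lowess (span 0.3), other scalings, filters and thresholds, and leaving out each library. The scripts were tested on simulated data, drawn 1 time per size of change. Most changes of the size fitted for GPC4 were missed, and a larger share of the calls was false than the threshold states. The changed genes had low to high counts, and the share missed among genes with as many counts as GPC4 was not measured.

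The members and lists were chosen with earlier results of these data known. Named genes are all 10 members, list genes with an adjusted p under 0.05, the 3 with the highest TPM per list, the 3 most like GPC4, and genes whose exons overlap a member.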

Additional observations from a re-analysis of the deposited data

How the results depend on the processing

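GPC4 stayed lower in every setting run, from -0.28 to -0.21 on the log2 scale, and kept its call at a threshold of 0.05 in all count-based settings with 6 libraries. No setting on TPM values called any of the 10 genes. Of all genes tested, 446 were called. The count was 718 with no count filter, 913 with the GC correction, 982 with the GC correction and replicate block, 33 with log2(TPM + 1), 16 with log2(TPM + 0.1), 1 with log2(TPM + 1) and no filter, 27 with rescaled TPM, and 221 and 725 at thresholds of 0.01 and 0.1. Leaving out 1 library gave 194 to 1179. With no count filter the split was 336 higher and 382 lower, and limma on log2(TPM + 1) gave 27 and 6, against 246 and 200.

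Of the 10 members, 1 was called. The number was 2 with the replicate block, with no count filter, with DESeq2 and at a threshold of 0.1, 3 with the GC correction with or without the block, and 0 at a threshold of 0.01 and in the 4 TPM settings. It ranged from 0 to 2 without 1 library. The replicate numbers did not pair the wells: deviations of same-numbered wells correlated at 0.045, -0.025 and 0.019, and LN-521 replicate 2 correlated better with LN-521+LN-221 replicate 3 (0.048). With the replicate block all genes called were 646.

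For the linkage list (0 called) the count was 1 with the replicate block, no count filter, either GC correction or a threshold of 0.1, and 0 to 2 without 1 library. For the sulfation list (2) it was 1 with library size alone and at a threshold of 0.01, 0 with TPM values, and 0 to 3 without 1 library. For the editing list (2) it was 1 at 0.01, 0 with TPM values, and 1 to 2 without 1 library. For core protein partners (3) it was 1 at 0.01, 0 with TPM values, and 0 to 3 without 1 library. For the other core proteins (1) it was 0 at 0.01 and with TPM values, and 0 to 1 without 1 library. For the chondroitin list (0) it was 2 with the replicate block, no count filter or a threshold of 0.1, 1 with library size alone, 1 CPM in 3 libraries or DESeq2, 3 with the GC correction and 4 with the GC correction and replicate block, and 0 to 3 without 1 library. The summed level of the 10 genes, 201.6 TPM, was 303.8 TPM after abundant RNAs were removed, and each member's level rose with it by construction.

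Among the named genes, reversals were seen in ones that were not called. SDC1 turned to 0.15 with log2(TPM + 1), filtered or not, 0.16 with log2(TPM + 0.1), 0.12 with rescaled TPM, 0.049 with the GC correction and 0.047 with the GC correction and replicate block. MMP14 turned to 0.12 and 0.13 with log2(TPM + 1) and log2(TPM + 0.1), 0.09 with rescaled TPM, 0.034 with the GC correction and 0.035 with block. DSE turned to 0.0065 and 0.0072 in those TPM settings. EXT2 turned to -0.00058 with library size alone and -0.0049 with no count filter. UST turned to -0.0025 and -0.0057 in these, and to -0.0057 and -0.0051 with the GC correction without and with the block. GDE1 turned to -0.0013 with no count filter and -0.0015 with rescaled TPM. PTPRS turned to 0.024 and 0.027 with the GC correction without and with the block. Without 1 library the log2 fold change ranged from -0.15 to 0.03 for GPC1, -0.074 to 0.041 for SDC1, -0.0020 to 0.099 for SDC4, -0.021 to 0.141 for EXTL2, -0.024 to 0.023 for EXT2, -0.056 to 0.011 for PAPSS1, -0.072 to 0.091 for SLC35B2, -0.042 to 0.056 for GDE1, -0.078 to 0.022 for MMP14, -0.0398 to 0.177 for AGRN, -0.013 to 0.16 for HSPG2 and -0.0204 to 0.0494 for UST. The cause was not tested. Among named genes, with all libraries 405 results kept direction and side of the threshold, 35 lost a call, 9 gained one and 25 reversed, and without 1 library 149 kept both, 28 lost a call, 4 gained one and 23 reversed. Depth limited GPC5, which had 8 to 14 counts per library. It failed the count filter with all libraries, and its log2 fold change was between -0.29 and -0.083 in the 4 fits without 1 library that tested it, with no call (edgeR adjusted p from 0.819 to 0.974), and turned to 0.0094 with log2(TPM + 1) and no filter (limma adjusted p = 0.980), against -0.19 with no count filter.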
